A study of Ovis aries with 24 samples.

Results

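The ascending aorta of sheep was followed from the preterm fetus to the newborn lamb, the longest interval of development that the study covers. The 8 arrays compared were the 4 titled as newborn aorta and the 4 titled as fetal aorta of 100 days, of 24 arrays in all, and 4 arrays of near-term fetal aorta served as the midpoint that divides the interval into a step before birth and a step across birth. The study also held the ductus arteriosus, the fetal vessel between pulmonary artery and aorta, at the same 3 stages. Preterm fetuses were of 97 days of gestation in the sample descriptions and 100 in the titles, near-term fetuses of 136 days and 140 respectively, and newborn lambs were 12 hours old. The step across birth therefore also holds the days of gestation left after near term. Changes in those days cannot be told apart from changes after delivery. Gestational age at birth is not given for the lambs, so the length of this step is not known. No strain, sex or treatment is given, and ewes and newborns were killed with a pentobarbital and phenytoin solution. Each group held 4 arrays of 4 animals, so n = 4 for each mean, except where fewer arrays are named. The tissue was a whole piece of vessel wall, described as ascending aorta and also as aorta next to the ductus, and whatever cells it contained contributed to the RNA.

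The fetal aorta grows by division of its smooth muscle cells and by deposition of elastin, collagen and proteoglycans. Toward birth cell division slows and the smooth muscle cells fill with contractile proteins. Around delivery arterial oxygen and pressure rise, circulating cortisol and thyroid hormone are high, the placental circulation ends and the left ventricle comes to supply the whole body through this vessel.

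Values are the normalised log2 signal of a probe: the log2 of its background-subtracted signal minus the 75th percentile of its array, so that 0 marks that percentile and a difference of 1 is a doubling. Of 15008 probes, 13997 were tested because at least 4 of the 24 arrays read them well above background, and 775 genes could be named. Each stage was hybridised on 1 slide, so stage and slide cannot be told apart within the aorta. The spike-in detection limit, as the file headers give it, was under 1.5 on preterm replicate 1, near-term replicate 1 and newborn replicates 1 and 2. It was above 1.5 on the other aorta arrays. The part of this property in the results was not tested beyond the alternatives reported with the processing. Correlations between arrays of 1 aorta group ran from 0.863 to 0.985 across probes. Of 10 smooth muscle markers only CNN1 was measured, and the endothelial markers KDR, NOS3, TIE1, FLT1 and TEK and the fibroblast markers FBLN1, DCN, COL1A1 and C3 were measured, so the label could be checked against few defining genes.

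The largest falls and rises were taken among named genes that passed an adjusted p of 0.05 with no overlap of preterm and newborn arrays. Of these the mitotic spindle gene ASPM, the angiotensin receptor AGTR2 and the growth factor binding protein IGFBP2 fell most. The fatty acid binding protein FABP4, the acute phase protein SAA3 and the chemokine CXCL8 rose most. UCP1 was 4.07 higher without passing (adjusted p 0.0906). ASPM and AGTR2 were dim in the newborn, and with normexp background correction the order of the falls was IGFBP2 (-2.80), TYMS (-2.38), APOA1 (-2.09), FBLN1 (-2.09), AGTR2 (-1.96), CA11 (-1.70) and ASPM (-1.65), while FABP4, SAA3 and CXCL8 stayed the largest rises. In all 1273 probes (9.09%) passed an adjusted p of 0.05, 551 higher in the newborn (3.94% of those tested) and 722 lower (5.16%). Among the named genes 78 passed (10.1%), 40 higher and 38 lower, a share close to that of all probes. Counts of list members and markers that passed are read beside these shares. The preterm and newborn arrays did not overlap for 71 of these 78 genes, and for 1894 of all tested probes (13.5%). Another probe was tested for 49 of the 78 genes: it differed in the same direction for 48 and passed as well for 32. Of the called probes 224 were at least 2-fold higher and 410 at least 2-fold lower, and 13 and 32 reached 8-fold.

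**Figure D1:**
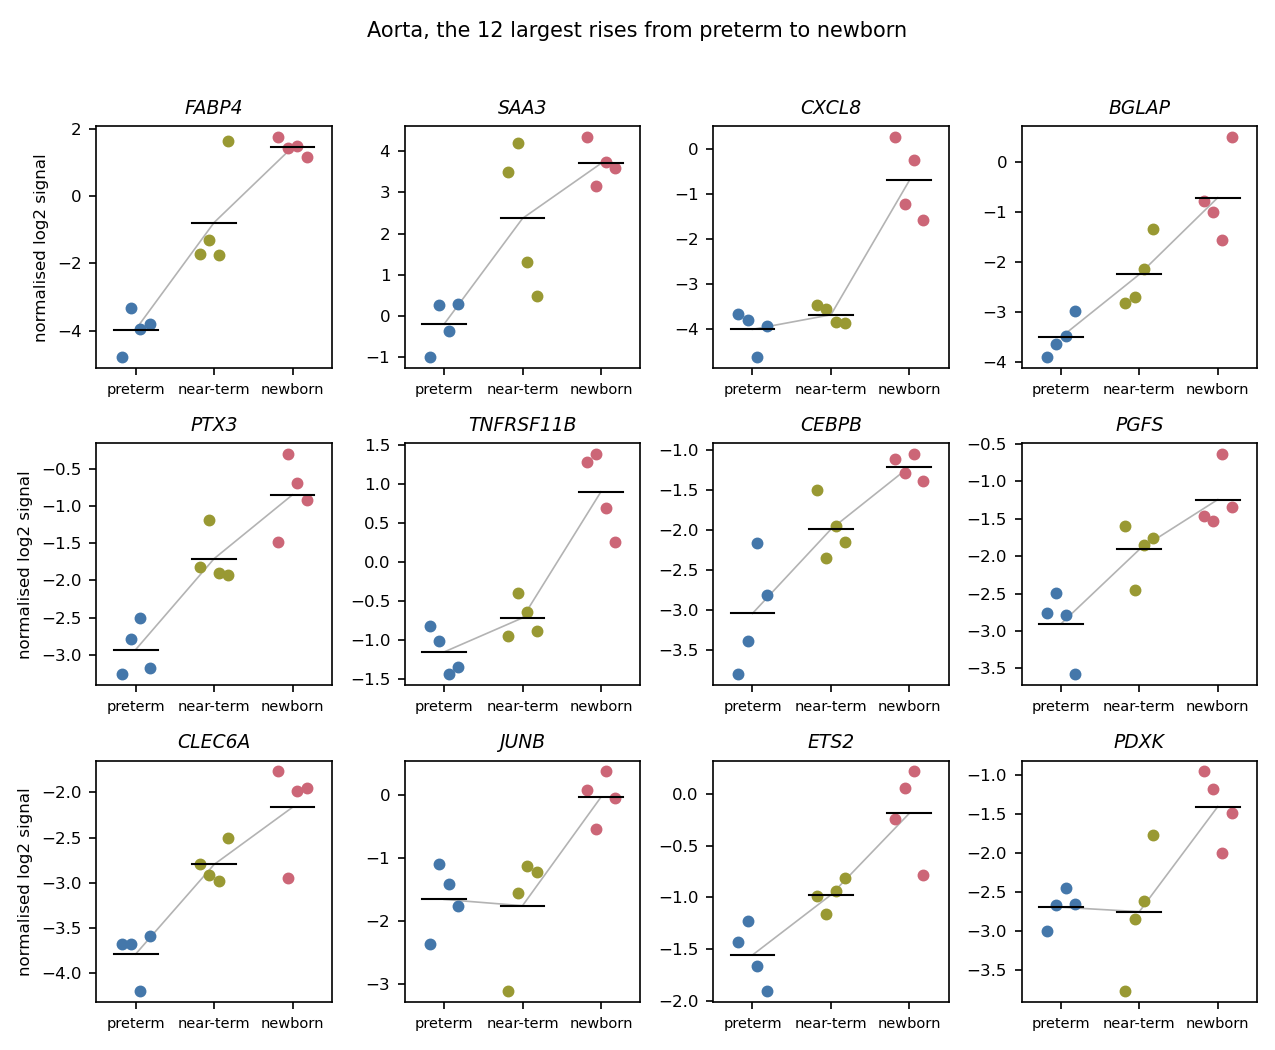
Normalised log2 signal (vertical axis, own scale in each panel) of the 12 named genes that rose most from preterm to newborn aorta, on each preterm, near-term and newborn array (points, replicates 1 to 4 from left to right) with group means (black bars). The genes were taken from those that passed over the interval and were chosen so that the 4 newborn points lie above the 4 preterm points. The near-term mean lies well above the preterm mean for FABP4, SAA3 and PTX3 and close to it for CXCL8, JUNB and PDXK.

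Probes passed in both steps of the interval. Between preterm and near term 69 probes passed (0.493%), and between near term and newborn 902 passed (6.44%). With only the 2 groups of a step in the limma fit the counts were 12 and 0 (1506 and 1963 at an unadjusted p under 0.05), so the order of the counts depends on the arrays in the fit. These 2 comparisons and the full interval share arrays, so their counts are given side by side and do not test each other. A test of the near-term mean against the midway between the preterm and newborn means, whose error is independent of that of the full difference, asks whether the step before birth differed from the step across it. It passed for 40 probes (0.286%), 14 above and 26 below the midway, with 1797 at an unadjusted p under 0.05, so for nearly all probes these arrays did not separate the steps. Among the 551 probes called higher, the median difference was 0.24 before birth and 0.65 across birth, and among the 722 called lower it was -0.43 and -0.72.

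The median of all tested probes differed by -0.12 over the full interval, 0.13 before birth and -0.24 across birth, and the steps of single genes are read against these shifts. With quantile normalisation, where the medians of all probes are -0.01, -0.01 and -0.00, the 578 probes then called higher had medians of 0.27 before and 0.69 across birth and the 707 called lower -0.47 and -0.68. The distance of near term from the midway had a median of -0.20 in the risers and 0.14 in the fallers, against 0.17 over all probes, and with quantile normalisation these were -0.20, 0.14 and -0.00. With only the arrays whose detection limit was under 1.5, which leaves 2 newborn, 1 near-term and 1 preterm aorta array, the median of the probes then called higher was 0.09.

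**Figure D2:**
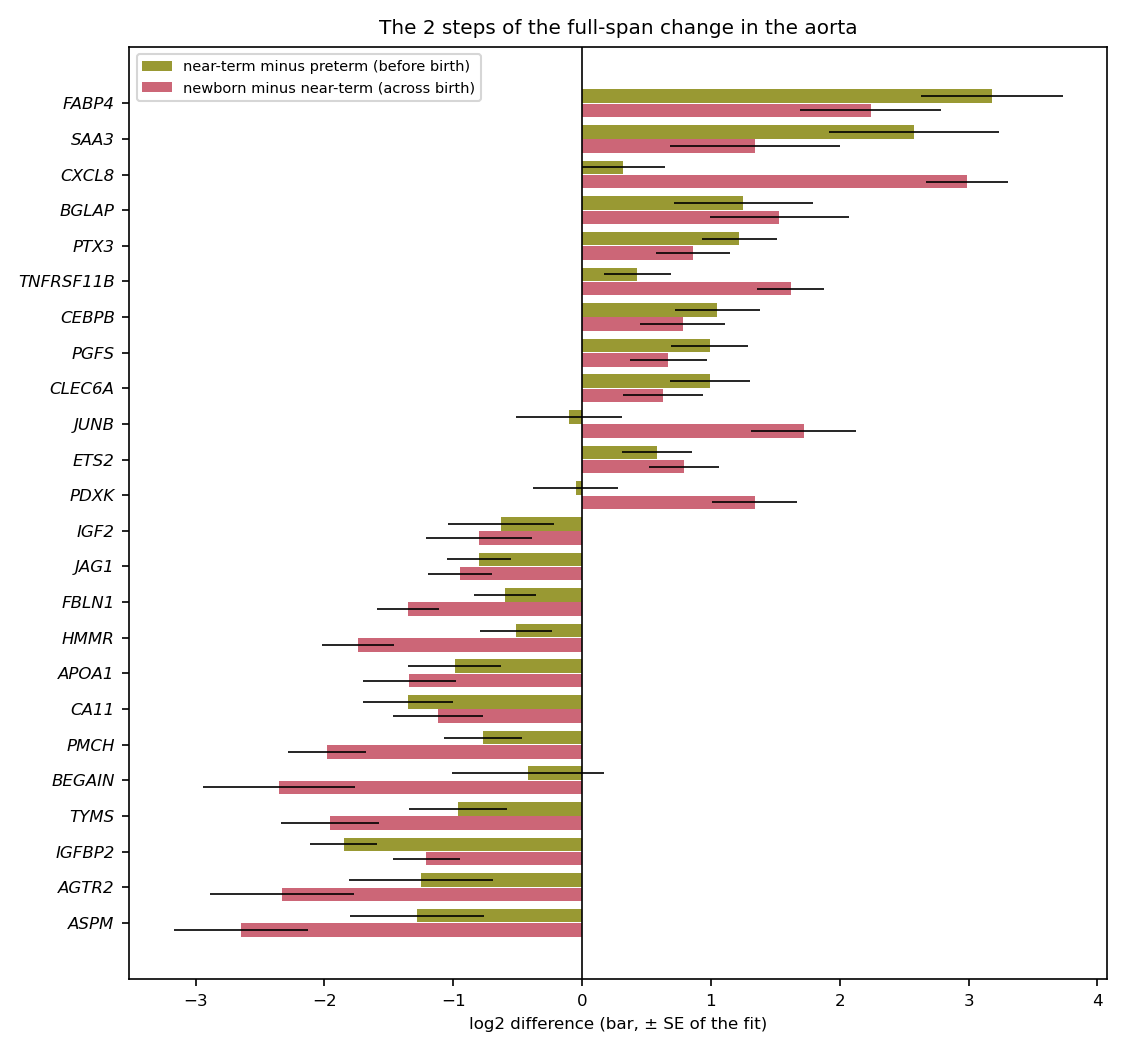
Difference in normalised log2 signal (horizontal axis) of the 12 largest rises and 12 largest falls before birth (near-term minus preterm) and across birth (newborn minus near-term), as bars with ± 1 standard error of the fit. The genes were taken from those that passed over the full interval and whose preterm and newborn arrays did not overlap. CXCL8, JUNB, PDXK, HMMR and TNFRSF11B have the larger bar across birth, and FABP4, SAA3, PTX3 and IGFBP2 the larger bar before birth, although the test of unequal steps passed only for CXCL8 among these 24 genes and the newborn level of BEGAIN is not above background. With normexp the steps of FABP4 were 2.00 before and 2.17 across birth, and those of PDXK 0.44 and 0.42.

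Of genes that act in cell division, ASPM, HMMR and TYMS fell. ASPM, a protein of the mitotic spindle poles, measured -1.25, -1.37, -1.46 and -1.14 on the preterm arrays, -2.50, -2.51, -2.84 and -2.48 near term and -4.67, -5.29, -7.40 and -3.55 in the newborn. All 3 groups were apart, and the probe was well above background on only 2 of the 4 newborn arrays. The fall was 15.2-fold (log2 -3.92 ± 0.52, adjusted p 5.41e-05), with -1.28 before birth (adjusted p 0.361) and -2.65 across birth (adjusted p 0.00493).

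TYMS, thymidylate synthase, which makes the thymidine nucleotide for DNA, was at 0.61, 0.57, 0.63 and 0.34 in the preterm, -0.53, -0.17, -0.46 and -0.52 near term and -1.88, -3.71, -2.44 and -1.48 in the newborn. It fell 7.54-fold (log2 -2.92 ± 0.38, adjusted p 4.51e-05), by -0.96 before birth (adjusted p 0.344) and -1.96 across it (adjusted p 0.00457). HMMR, a hyaluronan receptor that also acts on the spindle, was at -0.82, -0.93, -1.44 and -0.68, then -2.30, -1.00, -1.41 and -1.20, then -2.72, -3.67, -3.39 and -3.06. The newborn arrays were all below the others, and near term overlapped preterm. HMMR fell 4.75-fold (log2 -2.25 ± 0.28, adjusted p 2.7e-05), of which -1.74 lay across birth (adjusted p 0.0014).

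Of the list of cell cycle genes 3 of 42 were measured, with a median of -0.84 against -0.12 for all probes. Of the 3, 2 fell and 0 rose (66.7% called, against 9.09% of all probes). Beside TYMS these were the histone variant H2AZ1 at -0.83 (adjusted p 0.0378), whose near-term replicate 3 was left out as an outlier spot, and PCNA, the sliding clamp of DNA polymerase, at -0.84 without passing (adjusted p 0.07). The call of H2AZ1 ended without any 1 of preterm replicates 1, 3 and 4 and newborn replicates 2 and 3 (adjusted p from 0.0666 to 0.135). Of 8 measured cell cycle inhibitors and survival genes 0 passed over the interval, with a median of 0.09. In a piece of tissue, fewer cells of a type and less RNA per cell cannot be told apart.

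Of the insulin-like growth factor genes, IGFBP2, IGF2 and IGFBP4 fell. IGFBP2, which binds insulin-like growth factors in the fetus, measured 4.04, 3.63, 3.33 and 3.48 in the preterm aorta, 1.72, 1.97, 1.37 and 2.05 near term and 1.15, 0.54, 0.18 and 0.38 in the newborn. No arrays of different stages overlapped. It fell 8.33-fold (log2 -3.06 ± 0.26, adjusted p 5.75e-07), and both steps passed: -1.85 before birth (adjusted p 0.00119) and -1.21 across it (adjusted p 0.00777). The near-term mean was -0.32 from the midway (95% interval -0.78 to 0.15, adjusted p 0.595). IGF2, the main growth factor of the fetus, was at 5.37, 5.27, 5.87 and 5.92 in the preterm and 4.68, 4.56, 4.08 and 3.37 in the newborn, and fell 2.70-fold (log2 -1.43 ± 0.26, adjusted p 0.00307). Of its near-term arrays 3 were left out as outlier spots and the remaining array read 4.98, so its steps rest on 1 midpoint value.

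Of 19 genes of the insulin-like growth factor and growth hormone axis 11 were measured, with a median of -0.24. Of the 11, 3 fell and 0 rose (27.3% called, against 9.09% of all probes). Beside IGFBP2 and IGF2, IGFBP4 fell, a binding protein that restrains these growth factors. IGFBP4 read 5.49, 5.49, 5.77 and 5.80 in the preterm, 5.24, 5.02, 4.90 and 5.13 near term and 5.02, 5.16, 4.93 and 5.19 in the newborn. Its difference of -0.56 (adjusted p 0.0374) stood at -0.56 before birth (adjusted p 0.171) and 0.00 across it. The call ended without any 1 of preterm replicates 3 and 4 and newborn replicates 1, 2 and 3 (adjusted p from 0.06 to 0.117). IGFBP3, the main carrier of these factors in serum, was 0.89 higher (adjusted p 0.104), and IGF2R, the receptor that removes IGF2, was at -1.09 (adjusted p 0.218), neither passing. IGF1 read -0.08 over the interval (adjusted p 0.973).

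Imprinted genes are expressed from 1 parental allele, and many of them are active in the fetus. Whether the members of the list are imprinted in the sheep aorta was not checked. Of 24 members 5 were measured, with a median of -1.14, the value of DCN. With normexp the median was -0.48 and 2 fell. Of the 5, 3 fell and 0 rose (60% called, against 9.09% of all probes). These were IGF2, the proteoglycan gene DCN and BEGAIN, a gene next to the imprinted cluster around MEG3. BEGAIN read -4.60, -4.06, -4.45 and -4.23 in the preterm and -5.52, -5.34, -4.34 and -3.80 near term. In the newborn 0 of 4 arrays read it well above background, so it was at least 2.91-fold higher in the preterm (fitted log2 -2.77 ± 0.59, adjusted p 0.00483). With normexp background correction the full difference was -0.40 and did not pass (adjusted p 1). Since the newborn level is only a bound, the fall is not divided into steps. MEG3 itself, a noncoding transcript, read -0.47 without passing.

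**Figure D3:**
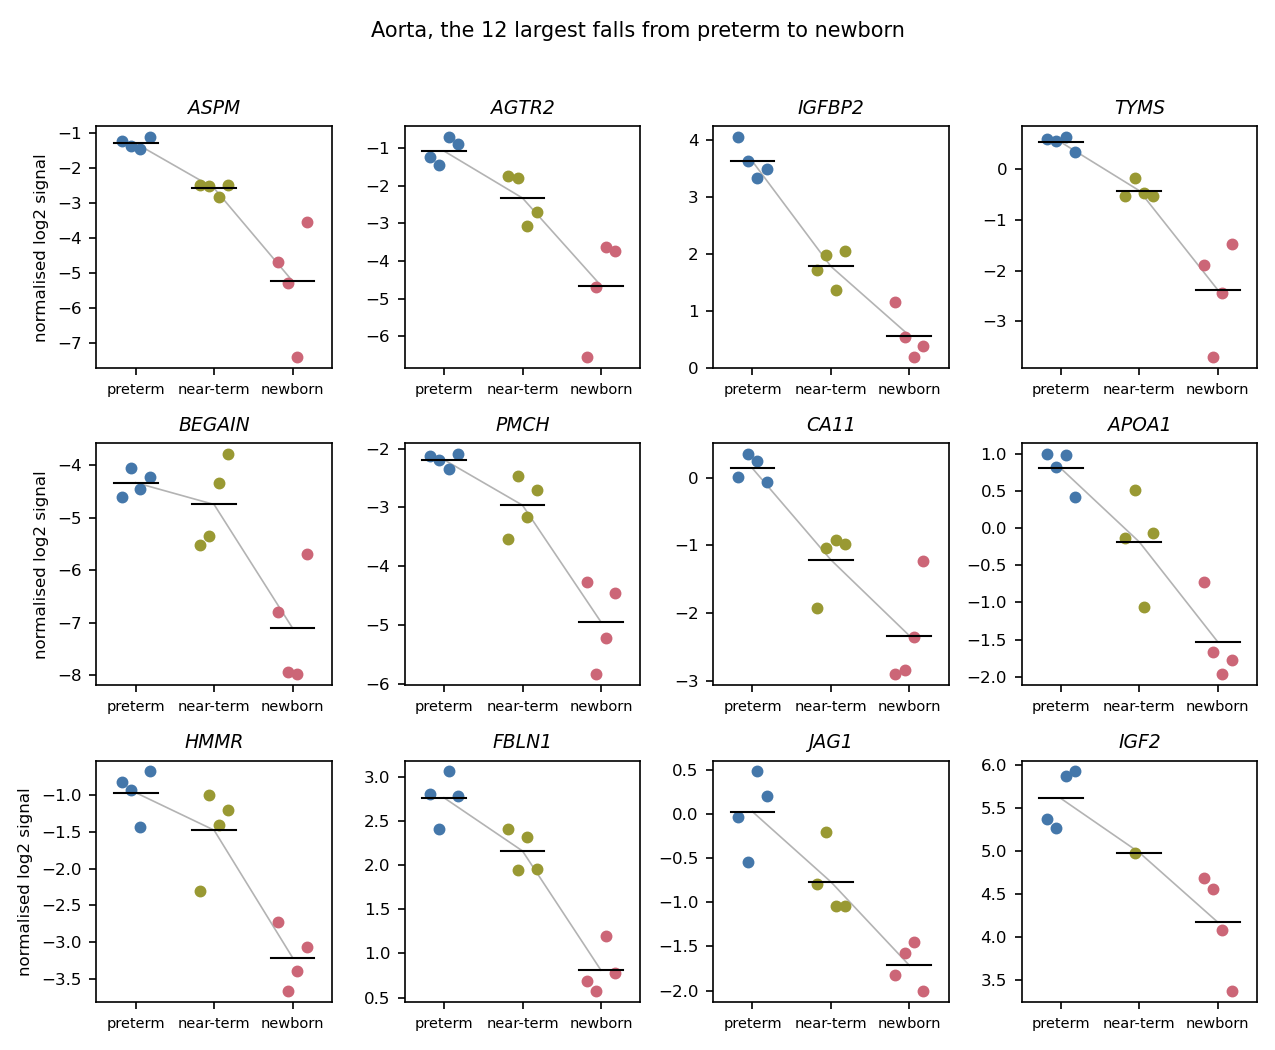
Normalised log2 signal (vertical axis, own scale in each panel) of the 12 named genes that fell most from preterm to newborn aorta, on each array of the 3 stages (points, replicates 1 to 4 from left to right) with group means (black bars). The genes were taken from those that passed over the interval and were chosen so that all 4 newborn points lie below all 4 preterm points. IGF2 has 1 near-term point because 3 near-term spots were left out.

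Of matrix genes, FBLN1, DCN, BGN and MMP2 fell. FBLN1, fibulin-1, a glycoprotein of elastic fibres and basement membranes, measured 2.80, 2.41, 3.06 and 2.78 in the preterm, 2.41, 1.95, 2.32 and 1.96 near term and 0.69, 0.57, 1.20 and 0.78 in the newborn. The newborn arrays stood well below both fetal groups, which touch at 2.41. FBLN1 fell 3.86-fold (log2 -1.95 ± 0.24, adjusted p 2.7e-05), by -0.60 before birth (adjusted p 0.351) and -1.35 across birth (adjusted p 0.00292). It was the only measured gene of 19 elastic fibre genes. ELN, the elastin gene, was not among the genes tested.

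All 5 measured collagen and proteoglycan genes of 29 were below 0 (median -0.78), and 2 of them fell (40% called, against 9.09% of all probes). DCN, decorin, which binds collagen fibrils, read 5.50, 5.27, 5.81 and 5.74, then 4.89, 5.01, 4.27 and 5.31, then 4.63, 4.89, 4.61 and 3.63. It fell 2.21-fold (log2 -1.14 ± 0.25, adjusted p 0.00618), with -0.71 before and -0.43 across birth, neither passing. BGN, biglycan, a close relative, went from 4.88, 4.71, 4.95 and 4.64 through 4.38, 4.68, 4.62 and 4.37 to 4.00, 3.70, 4.17 and 4.11, a fall of 1.74-fold (log2 -0.80 ± 0.18, adjusted p 0.00596). The fibrillar collagens COL1A1 and COL3A1 were at -0.60 (adjusted p 0.294) and -0.62 (adjusted p 0.583). With median centring neither DCN (adjusted p 0.184) nor BGN (adjusted p 0.141) passed.

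Among 8 measured matrix proteases and inhibitors of 25, 1 fell and 0 rose (12.5% called, against 9.09% of all probes). The list median of -0.25 turned to 0.03 with normexp. MMP2, the gelatinase that digests basement membrane, read 0.33, 0.09, 0.26 and 0.21 in the preterm, -0.66, -0.51, -0.44 and -0.39 near term and -0.74, -0.52, -0.43 and -0.69 in the newborn. The preterm arrays stood apart and the later stages overlapped. Its fall of 1.76-fold (log2 -0.82 ± 0.15, adjusted p 0.0011) lay at -0.72 before birth (adjusted p 0.0279) and -0.09 across it (adjusted p 0.733), and the near-term mean was -0.32 from the midway (95% interval -0.58 to -0.05), which did not pass over all probes (adjusted p 0.286). The step of MMP2 before birth did not pass without any 1 of the preterm arrays or near-term replicates 1, 2 and 3 (adjusted p from 0.0553 to 0.112). TIMP1, an inhibitor of these proteases, read 4.81, 4.40, 4.38 and 4.22, then 4.00, 4.44, 4.46 and 4.28, then 5.14, 5.46, 4.94 and 4.56. It was 0.57 higher over the interval without passing (adjusted p 0.0683). Its step across birth passed at 0.73 (adjusted p 0.0264), and did not without any 1 of near-term replicates 1 and 4 and newborn replicates 1 and 2 (adjusted p from 0.056 to 0.1). The lysosomal proteases CTSD (0.46) and CTSB (-0.19) did not pass.

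Of 17 provisional matrix genes 3 were measured (median -0.31), and 1 fell (33.3% called, against 9.09% of all probes). This was HYAL2, a hyaluronan-degrading enzyme named after its value was seen, at -0.67 (adjusted p 0.019).

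Of contractile genes of smooth muscle 3 of 23 were measured, with a median of 0.85 against -0.12 for all probes. Of the 3, 2 rose and 0 fell (66.7% called, against 9.09% of all probes). CNN1, calponin, which binds actin in differentiated smooth muscle, read 5.16, 5.02, 4.99 and 4.79 in the preterm, 5.26, 5.23 and 5.42 on the 3 near-term arrays kept and 6.41, 6.31, 6.23 and 5.57 in the newborn. No stage overlapped another. It rose 2.21-fold (log2 1.14 ± 0.20, adjusted p 0.000953), with 0.32 before birth (adjusted p 0.731) and 0.83 across it (adjusted p 0.0264). That later step did not pass without any 1 of near-term replicates 1 and 2 and newborn replicates 1, 2 and 3 (adjusted p from 0.0617 to 0.0899). MYL6, the essential light chain of smooth muscle myosin, went from 7.20, 6.46, 7.14 and 7.03 to 7.59, 7.99, 7.82 and 7.33 in the newborn and rose 1.65-fold (log2 0.73 ± 0.19, adjusted p 0.0213). Its call ended without preterm replicate 2 or newborn replicate 2 or 3 (adjusted p from 0.0598 to 0.084). MYLK, the kinase that switches on myosin, was 0.85 higher and did not pass (adjusted p 0.475), with newborn replicate 4 at 4.19 and the other newborn arrays from 5.63 to 5.98. ACTA2, MYH11 and TAGLN were not among the genes tested.

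Of the TGF-beta, BMP, activin and Notch genes 3 of 29 measured passed (10.3%), and of the Wnt, FGF, PDGF and VEGF genes 2 of 25 (8%), shares near the 9.09% of all probes. JAG1, a Notch ligand through which endothelium instructs smooth muscle, read -0.04, -0.54, 0.48 and 0.20 in the preterm, -0.79, -0.21, -1.04 and -1.04 near term and -1.82, -1.58, -1.45 and -2.01 in the newborn. The newborn arrays were below all fetal arrays. JAG1 fell 3.35-fold (log2 -1.74 ± 0.25, adjusted p 0.00014) in steps of nearly equal size, -0.80 before birth (adjusted p 0.212) and -0.95 across it (adjusted p 0.029). The later step did not pass without any 1 of near-term replicates 1 and 2 and newborn replicates 1, 2 and 4 (adjusted p from 0.0521 to 0.11).

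TGFBR2, the receptor that binds transforming growth factor beta, was at -2.90, -2.76, -2.42 and -2.74, then -1.97, -1.94, -1.45 and -1.86, then -1.78, -0.81, -1.92 and -1.45. It rose 2.32-fold (log2 1.22 ± 0.22, adjusted p 0.00102), with 0.90 before birth (adjusted p 0.0732) and 0.32 across it (adjusted p 0.439). Its other probe differed by 0.15 (adjusted p 0.948), and with normexp the first probe differed by 0.67 and did not pass (adjusted p 0.183).

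INHA, the inhibin alpha subunit, an antagonist of activin, read -2.05, -2.76, -2.12 and -2.42 in the preterm, -2.95, -2.51, -2.86 and -2.68 near term and -1.36, -1.74, -1.06 and -0.62 in the newborn. The fetal stages overlapped and all newborn arrays were higher. It rose 2.20-fold (log2 1.14 ± 0.24, adjusted p 0.00374), with 1.56 across birth (adjusted p 0.00104) and -0.42 before it (adjusted p 0.62). TGFB3, a ligand, was at -0.81 without passing (adjusted p 0.0883). Of 29 measured genes of the TGF-beta, BMP, activin and Notch pathways of 43, 2 rose and 1 fell (median -0.35, and -0.09 with normexp and 0.11 with only the arrays whose detection limit was above 1.5). INHA did not pass with normexp either (0.84, adjusted p 0.101).

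The Wnt, FGF, PDGF and VEGF list had 25 of 45 genes measured, of which 2 fell and 0 rose, and its median was -0.75 (-0.49 with quantile normalisation and -0.06 with normexp). KDR, the endothelial receptor for VEGF, read -2.79, -2.22, -2.15 and -2.77, then -2.82, -2.60, -2.28 and -2.22, then -3.88, -3.31, -3.75 and -2.68, with newborn replicate 4 inside the fetal range. It fell 1.89-fold (log2 -0.92 ± 0.25, adjusted p 0.0257), with 0.00 before birth and -0.93 across it (adjusted p 0.0333). The full call ended without preterm replicate 2 or 3 or newborn replicate 1 or 3 (adjusted p from 0.0769 to 0.0937), and the step across birth without any 1 of near-term replicates 2, 3 and 4 and newborn replicates 1, 2 and 3 (adjusted p from 0.0626 to 0.118). With normexp the full difference was -0.48 (adjusted p 0.491).

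FZD2, a Wnt receptor, measured 2.28, 1.96, 2.28 and 2.45 in the preterm, -0.05, 1.21, 1.32 and 1.52 near term and 2.13, 0.70, 1.16 and 0.88 in the newborn, where replicate 1 lay among the preterm values. Its difference of -1.02 passed (adjusted p 0.0459), but not without any 1 of the preterm arrays or newborn replicates 2, 3 and 4 (adjusted p from 0.0561 to 0.152). EGFR (-1.62, adjusted p 0.0557) and MET (-0.75, adjusted p 0.126), receptors for epidermal and hepatocyte growth factor, did not pass. Of the 5 endothelial markers measured, KDR alone passed (20%, against 9.09% of all probes). The mean level of the 5 per array ran from -3.43 to -2.68 in the preterm and from -4.08 to -2.52 in the newborn. The part of endothelial cell number in the fall of KDR was not tested.

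A pair of genes known from bone rose. TNFRSF11B, osteoprotegerin, a secreted decoy receptor that blocks osteoclast formation and that arteries also make, read -0.82, -1.01, -1.44 and -1.34 in the preterm, -0.95, -0.39, -0.64 and -0.88 near term and 1.28, 1.38, 0.69 and 0.26 in the newborn. The fetal stages overlapped and the newborn arrays stood above both. It rose 4.15-fold (log2 2.05 ± 0.26, adjusted p 3.23e-05), with 0.43 before birth (adjusted p 0.646) and 1.62 across it (adjusted p 0.0014). BGLAP, osteocalcin, which binds calcium and hydroxyapatite, read -3.90, -3.63, -3.48 and -2.98, then -2.82, -2.69, -2.13 and -1.33, then -0.77, -1.00, -1.56 and 0.49. It rose 6.91-fold (log2 2.79 ± 0.54, adjusted p 0.00228) in steps of 1.25 and 1.53, neither of which passed. None of the 8 cartilage markers was measured.

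Of 24 measured inflammatory genes 5 rose, 0 fell and 19 did not pass (20.8% called, against 9.09% of all probes). CXCL8, the chemokine that draws neutrophils, read -3.68, -3.81, -4.64 and -3.93 in the preterm, -3.47, -3.57, -3.85 and -3.87 near term and 0.26, -1.23, -0.25 and -1.57 in the newborn. Fetal arrays of both ages overlapped and every newborn array was above them. The rise was 9.97-fold (log2 3.32 ± 0.32, adjusted p 1.9e-06), with 0.32 before birth (adjusted p 0.858) and 2.99 across it (adjusted p 7.53e-05). SAA3, an acute phase serum amyloid, read -1.02, 0.26, -0.37 and 0.29 in the preterm, 3.49, 4.20, 1.30 and 0.48 near term and 4.34, 3.15, 3.75 and 3.59 in the newborn. The near-term arrays were spread over almost the whole range. SAA3 rose 15.2-fold (log2 3.92 ± 0.66, adjusted p 0.000645), with 2.58 before birth (adjusted p 0.094) and 1.34 across it (adjusted p 0.269). Serum amyloid genes are near copies of each other, and whether the probe tells them apart was not checked.

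PTX3, a long pentraxin that marks microbes and dying cells, went from -3.26, -2.78, -2.50 and -3.17 through -1.82, -1.19, -1.90 and -1.92 to -1.48, -0.31, -0.69 and -0.92. It rose 4.22-fold (log2 2.08 ± 0.29, adjusted p 8.85e-05) in steps of 1.22 (adjusted p 0.0655) and 0.86 (adjusted p 0.0837). CD14, the co-receptor for bacterial lipopolysaccharide, read -1.49, -1.85, -1.26 and -1.85, then -1.48, -1.57, -1.38 and -1.67, then 0.18, -0.36, -0.63 and -1.04. Its rise of 2.22-fold (log2 1.15 ± 0.21, adjusted p 0.00105) had steps of 0.08 before birth (adjusted p 0.927) and 1.07 across it (adjusted p 0.00456), or 0.36 and 0.54 with normexp, and the test of unequal steps did not pass (adjusted p 0.231). CD14 and CXCL8 each had a further probe that passed over the full interval (1.38 and 3.44).

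The inflammatory list held 42 genes, and its median over the measured members was 0.30 (0.19 to 0.54 with normexp, median centring and quantile normalisation). The fifth was NFKBIA, the inhibitor that NF-kappaB induces against itself, at 1.14 (adjusted p 0.0196), outside the naming rule and named after its value was seen. Its call ended without any 1 of preterm replicates 2 and 4 and newborn replicates 2 and 3 (adjusted p from 0.0557 to 0.0701). For IL6 0 of the 12 aorta arrays rose well above background, so no fold is given. Of 5 macrophage markers CD14 alone passed (20%, against 9.09% of all probes). ITGAM (0.69) and CD86 (0.36) were above 0, and CD80 (-0.81) and CYBB (-0.05) below it. The mean level of the 5 markers per array overlapped between stages, from -3.69 to -3.36 in the preterm and -3.86 to -2.51 in the newborn. Their summed level, in which bright members weigh most, ran from -0.57 to -0.38 in the preterm and from -0.01 to 0.54 in the newborn. Of 4 neutrophil and granulocyte markers 0 passed (0.98 to 1.41 over the interval), and of 9 lymphocyte markers 0 passed. Of 10 measured interferon and antigen presentation genes 0 passed (median -0.07). The part of resident or infiltrating cells in these rises was not tested.

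Among transcription factors, CEBPB, JUNB and ETS2 were in the 12 largest rises. CEBPB, which activates acute phase and fat cell genes, read -3.80, -3.38, -2.16 and -2.81, then -1.50, -2.34, -1.95 and -2.15, then -1.11, -1.28, -1.05 and -1.38. It rose 3.56-fold (log2 1.83 ± 0.33, adjusted p 0.00101) in steps of 1.05 and 0.78 that did not pass. JUNB, an immediate early factor, measured -2.36, -1.10, -1.42 and -1.76 in the preterm, -3.12, -1.56, -1.13 and -1.23 near term and 0.07, -0.54, 0.37 and -0.05 in the newborn. It rose 3.07-fold (log2 1.62 ± 0.41, adjusted p 0.0162), with -0.10 before birth and 1.72 across it (adjusted p 0.0165). The full call of JUNB ended without preterm replicate 1 (1.39, adjusted p 0.0574) or newborn replicate 3 (1.48, adjusted p 0.0521), and its step across birth without near-term replicate 1 (1.27, adjusted p 0.0539).

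ETS2, a growth-responsive factor, went from -1.43, -1.23, -1.66 and -1.91 through -0.99, -1.16, -0.94 and -0.81 to -0.24, 0.06, 0.22 and -0.78, a rise of 2.59-fold (log2 1.37 ± 0.27, adjusted p 0.00239) in steps of 0.58 and 0.79 that did not pass. JUNB was the only riser among 9 measured immediate early genes of 24, with 0 falling (11.1% called, against 9.09% of all probes, median 0.16). The other members with the smallest p were CREM (0.35), JUND (0.93) and EGR1 (-0.40), which did not pass (adjusted p from 0.177 to 0.628). CLEC6A, a lectin receptor of myeloid cells, read -3.68, -3.68, -4.20 and -3.59 in the preterm and -1.77, -2.95, -1.99 and -1.95 in the newborn. It rose 3.08-fold (log2 1.62 ± 0.31, adjusted p 0.00205), by 0.99 before and 0.63 across birth without passing in either step, and with normexp the full difference was 0.75 (adjusted p 0.355).

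FABP4 showed the largest change of a named gene. This protein carries fatty acids in fat cells, macrophages and small-vessel endothelium. It read -4.79, -3.32, -3.95 and -3.79 in the preterm, -1.71, -1.31, -1.75 and 1.63 near term and 1.74, 1.42, 1.49 and 1.17 in the newborn. Near-term replicate 4 lay at the newborn level and the other near-term arrays between the groups. The rise was 42.8-fold (log2 5.42 ± 0.55, adjusted p 3.67e-06), with 3.18 before birth (adjusted p 0.011) and 2.24 across it (adjusted p 0.0192). Without near-term replicate 4 the steps were 2.37 (adjusted p 0.00425) and 3.05 (adjusted p 0.000492). With normexp and no array left out they were 2.00 and 2.17. Which step of FABP4 is the larger thus depends on that array and on the background correction. The step before birth did not pass without preterm replicate 1 (2.90, adjusted p 0.0529), nor the step across birth without any 1 of near-term replicates 1, 2 and 3 and newborn replicate 1 (adjusted p from 0.0556 to 0.0682).

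Other fat cell markers did not all move with it. UCP1, the uncoupling protein of brown fat, read -5.96, -2.87, -3.04 and -3.80 in the preterm, -2.81, -2.62, -1.43 and 3.23 near term and 1.85, 0.87, -2.05 and -0.08 in the newborn, a difference of 4.07 ± 1.44 that did not pass (adjusted p 0.0906). PPARG, the nuclear receptor of fat cell differentiation, was at 1.88 on near-term replicate 4 against -1.56 to -1.40 on the other near-term arrays, and differed by 0.79 over the interval (adjusted p 0.523). LPL (1.26, adjusted p 0.0904), LEP (0.15) and PLIN1 (0.01) did not pass. The mean level of the 6 measured of 10 fat cell markers ran from -4.21 to -2.95 in the preterm, -2.45 to 0.11 near term and -1.90 to -0.99 in the newborn, without overlap between preterm and newborn. These markers include FABP4, and the part of fat tissue around the vessel in its rise was not tested.

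Of 11 measured lipid uptake and transport genes of 31, 2 rose and 1 fell (27.3% called, against 9.09% of all probes). The list median was -0.12, and 0.13 with quantile normalisation. FABP5, a related carrier, went from 1.37, 2.08, 1.67 and 1.91 through 2.03, 1.89, 1.74 and 3.01 to 3.07, 3.43, 2.86 and 2.45 and rose 2.29-fold (log2 1.19 ± 0.26, adjusted p 0.00567). APOA1, the main protein of high density lipoprotein, read 0.99, 0.82, 0.98 and 0.42, then -0.13, 0.51, -1.06 and -0.07, then -0.72, -1.67, -1.97 and -1.77. It fell 5.05-fold (log2 -2.34 ± 0.36, adjusted p 0.000262), with -0.99 before birth (adjusted p 0.283) and -1.34 across it (adjusted p 0.029). The later step did not pass without any 1 of near-term replicates 1, 2 and 4 and newborn replicates 2 and 3 (adjusted p from 0.0636 to 0.107). NPC2, which exports cholesterol from lysosomes, was at -0.40 (adjusted p 0.0662). Of 7 measured liver markers, which include APOA1, 1 rose and 1 fell (28.6% called, against 9.09% of all probes). HACD1, an enzyme of long-chain fatty acid synthesis named after its values were seen, rose 2.09-fold (log2 1.06, adjusted p 0.0011), with 0.90 before birth (adjusted p 0.0352). That step did not pass without any 1 of the 8 preterm and near-term arrays (adjusted p from 0.0507 to 0.111). Of 4 measured genes of respiration and fat oxidation of 40 (median 0.70), 1 rose (25% called, against 9.09% of all probes). This was CPT1A, which brings fatty acids into mitochondria, at 0.99 (adjusted p 0.0259), also named after its value was seen.

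Receptors for vasoactive hormones were led by AGTR2, the type 2 angiotensin receptor, which is abundant in fetal tissues. It read -1.24, -1.46, -0.72 and -0.90 in the preterm, -1.73, -1.80, -3.07 and -2.71 near term and -6.56, -4.68, -3.64 and -3.73 in the newborn, where 3 of 4 arrays read it well above background. No stages overlapped. AGTR2 fell 11.9-fold (log2 -3.57 ± 0.56, adjusted p 0.000305), and its further probe by a log2 of -3.22. The steps were -1.25 before birth (adjusted p 0.429) and -2.33 across it (adjusted p 0.0164), and the later step did not pass without any 1 of near-term replicates 1 and 2 and newborn replicate 1 (adjusted p from 0.0516 to 0.0574). AGTR1, the receptor that mediates constriction, read 0.98, 0.89, 0.63 and 0.71 in the preterm and 0.75, 1.30, 1.11 and 0.43 in the newborn, overlapping throughout (0.09, adjusted p 0.944). Of 17 measured vasoactive peptides and receptors of 43, 1 fell and 0 rose (5.88% called, against 9.09% of all probes). The list median was -0.27, and 0.06 with quantile normalisation. The endothelin receptor EDNRB (1.07), endothelin-1 itself (EDN1, 0.14) and the natriuretic peptide gene NPPC (-2.00) did not pass. NPPC was scattered from -6.12 to 0.40 over the newborn arrays.

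In the prostanoid and nitric oxide pathway 15 of 30 genes were measured. Of the 15, 1 fell and 0 rose (6.67% called, against 9.09% of all probes). The list median was -0.52, and -0.20 with quantile normalisation and -0.04 with normexp. PTGS1, the constitutive cyclooxygenase, read 2.32, 2.13, 2.61 and 2.97 in the preterm, 1.44, 1.34, 1.65 and 1.55 near term and 1.20, 1.49, 1.68 and 1.55 in the newborn. The preterm arrays stood above the rest and the later stages were intermixed. PTGS1 fell 2.04-fold (log2 -1.03 ± 0.21, adjusted p 0.00269), with -1.01 before birth (adjusted p 0.0279) and -0.01 across it (adjusted p 0.975). The near-term mean was -0.50 from the midway (95% interval -0.87 to -0.13), which did not pass over all probes (adjusted p 0.22). The step before birth did not pass without any 1 of preterm replicates 1, 3 and 4 and the 4 near-term arrays (adjusted p from 0.0551 to 0.103).

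PTGS2, the inducible cyclooxygenase, was 0.53 higher without passing (adjusted p 0.365), and PTGDS, prostaglandin D synthase, was at -0.52 (adjusted p 0.388). NOS3, the endothelial nitric oxide synthase, read -0.35, 0.02, 0.04 and 0.23 in the preterm and -0.98, -1.45, -1.45 and -0.29 in the newborn, and its difference of -1.03 did not pass (adjusted p 0.0712). PGFS, a prostaglandin F synthase of the aldo-keto reductases, was at -2.76, -2.49, -2.79 and -3.58, then -1.59, -2.45, -1.85 and -1.75, then -1.46, -1.53, -0.64 and -1.34. It rose 3.17-fold (log2 1.66 ± 0.30, adjusted p 0.00126) in steps of 0.99 and 0.67 that did not pass. Its other probe differed by 0.51 (adjusted p 0.776), with normexp the first differed by 0.97 (adjusted p 0.0612), and the reductase genes resemble each other closely enough that the identity of the transcript was not settled here.

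In the step before birth 1 of 10 glucocorticoid genes and 1 of 10 nuclear receptor genes passed (10% each). Of all probes 0.493% passed in this step, and of named genes 0.903%. HSD11B1, which regenerates active cortisol, read -4.96, -4.26, -3.57 and -3.84 in the preterm, -2.93, -1.40, -2.81 and -2.04 near term and -3.64, -3.30, -3.06 and -2.97 in the newborn. It was 1.86 higher near term than preterm (adjusted p 0.0412), -0.95 across birth (adjusted p 0.186) and 0.91 over the full interval, where it did not pass (adjusted p 0.195). That early step did not pass without any 1 of the 8 arrays (adjusted p from 0.0512 to 0.168). ALDH1A1, which makes retinoic acid, was at -2.15, -2.15, -1.55 and -1.78, then -1.20, -0.39, -1.01 and 0.14, then -0.57, -1.14, -0.67 and -0.97. It rose 2.10-fold over the interval (log2 1.07 ± 0.26, adjusted p 0.0124), with 1.29 before birth (adjusted p 0.0279) and -0.22 across it (adjusted p 0.646). Its early step did not pass without any 1 of preterm replicates 1, 2 and 4 and near-term replicates 2 and 4 (adjusted p from 0.0596 to 0.112), and the full difference missed the threshold with median centring (1.12, adjusted p 0.0743).

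Of 10 measured glucocorticoid genes of 26, 0 passed over the interval (median 0.07), including the mineralocorticoid receptor NR3C2 (-0.57), CYP17A1 (-0.13), STAR (0.43) and HSD11B2, which inactivates cortisol (0.03). The glucocorticoid receptor NR3C1 reached a level well above background in 0 preterm, 1 near-term and 1 newborn sample. Of 10 measured thyroid, retinoid and other nuclear receptor genes of 25, ALDH1A1 alone rose and 0 fell (10%, against 9.09% of all probes). The list median was -0.02, and 0.39 with quantile normalisation. The progesterone receptor PGR (-0.73) and the thyroid receptor THRB (-0.22) did not pass.

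Among genes of stress and of protein making, changes were small. CRYAB, a small heat shock protein of muscle, measured 3.91, 3.87, 3.91 and 3.74 in the preterm, 3.44, 3.41, 3.63 and 3.76 near term and 5.53, 5.12, 4.49 and 3.95 in the newborn, scattered but above the preterm arrays. It rose 1.88-fold (log2 0.91 ± 0.27, adjusted p 0.039), with -0.30 before birth and 1.21 across it (adjusted p 0.0112). DDIT3, a factor induced by misfolded protein, rose 1.86-fold (log2 0.89, adjusted p 0.0458). The call of CRYAB ended without any 1 of the preterm arrays or newborn replicates 1 and 2 (adjusted p from 0.0657 to 0.151), and that of DDIT3 without any 1 of preterm replicates 1, 2 and 3 and newborn replicates 1, 2 and 3 (adjusted p from 0.0578 to 0.152). These were the 2 risers among 8 measured chaperone and unfolded protein genes of 21, with 0 falling (25% called, against 9.09% of all probes). The list median was 0.11, and PDIA4 (-0.54) and HSP90AA1 (-0.37) did not pass.

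All 15 measured ribosomal protein genes of 33 were below 0 (median -0.30). Of the 15, 2 fell and 0 rose (13.3% called, against 9.09% of all probes). RPL35A fell by 0.88 (adjusted p 0.028) and RPSA, also a laminin receptor, by 0.57 (adjusted p 0.0359) on the log2 scale. RPL10 (-0.42) and RPS15 (-1.29) did not pass, and RPS15 was well above background on 0 newborn arrays. The call of RPL35A ended without preterm replicate 3 or 4 or newborn replicate 1 or 4 (adjusted p from 0.0686 to 0.101). That of RPSA ended without any 1 of the preterm arrays or newborn replicates 1 and 4 (adjusted p from 0.0516 to 0.113). Of 6 measured antioxidant and metal binding genes of 31, 1 rose and 1 fell (33.3% called, against 9.09% of all probes). The list median was 0.24. TF, transferrin, rose by 0.87 (adjusted p 0.0454) and FTH1, the ferritin heavy chain, fell by 0.51 on the log2 scale (adjusted p 0.0309). The call of TF ended without any 1 of the preterm arrays or newborn replicates 2 and 3 (adjusted p from 0.0554 to 0.143), and that of FTH1 without any 1 of preterm replicates 1, 3 and 4 and newborn replicates 1 and 4 (adjusted p from 0.0516 to 0.0944). SOD2, the mitochondrial superoxide dismutase, was at 0.87 (adjusted p 0.0533), and GSTA1 at -0.69 did not pass.

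Of 7 measured glycolytic enzymes of 19 and 7 measured hypoxia response genes of 18, 0 passed over the interval, with medians of -0.41 and -0.44 (the latter 0.04 with normexp). PFKM (-1.26, adjusted p 0.0528), HK1 (-1.31), PFKL (-0.73) and GAPDH (-0.41) are enzymes of the first list. PFKM, with newborn replicate 4 left out as an outlier spot, passed across birth at -1.49 (adjusted p 0.0296). That step did not pass without any 1 of near-term replicates 2 and 3 and newborn replicates 1 and 2 (adjusted p from 0.0839 to 0.179), nor with the outlier spots kept (-0.79, adjusted p 0.429). SLC2A3, the glucose transporter GLUT3, read 2.61, 2.35, 2.01 and 1.90 in the preterm, 2.40, 1.93, 2.75 and 3.20 near term and 1.48, 1.23, 1.77 and 1.22 in the newborn. Its difference of -0.79 did not pass (adjusted p 0.1), while the step across birth did (-1.14, adjusted p 0.0219), except without any 1 of near-term replicates 3 and 4 and newborn replicate 2 (adjusted p from 0.0625 to 0.0754). VEGFA (-1.29), ARNT (-0.86) and LDHA (-0.14) did not pass. Of 7 ion channel and calcium genes and 8 patterning transcription factors 0 passed.

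**Figure D4:**
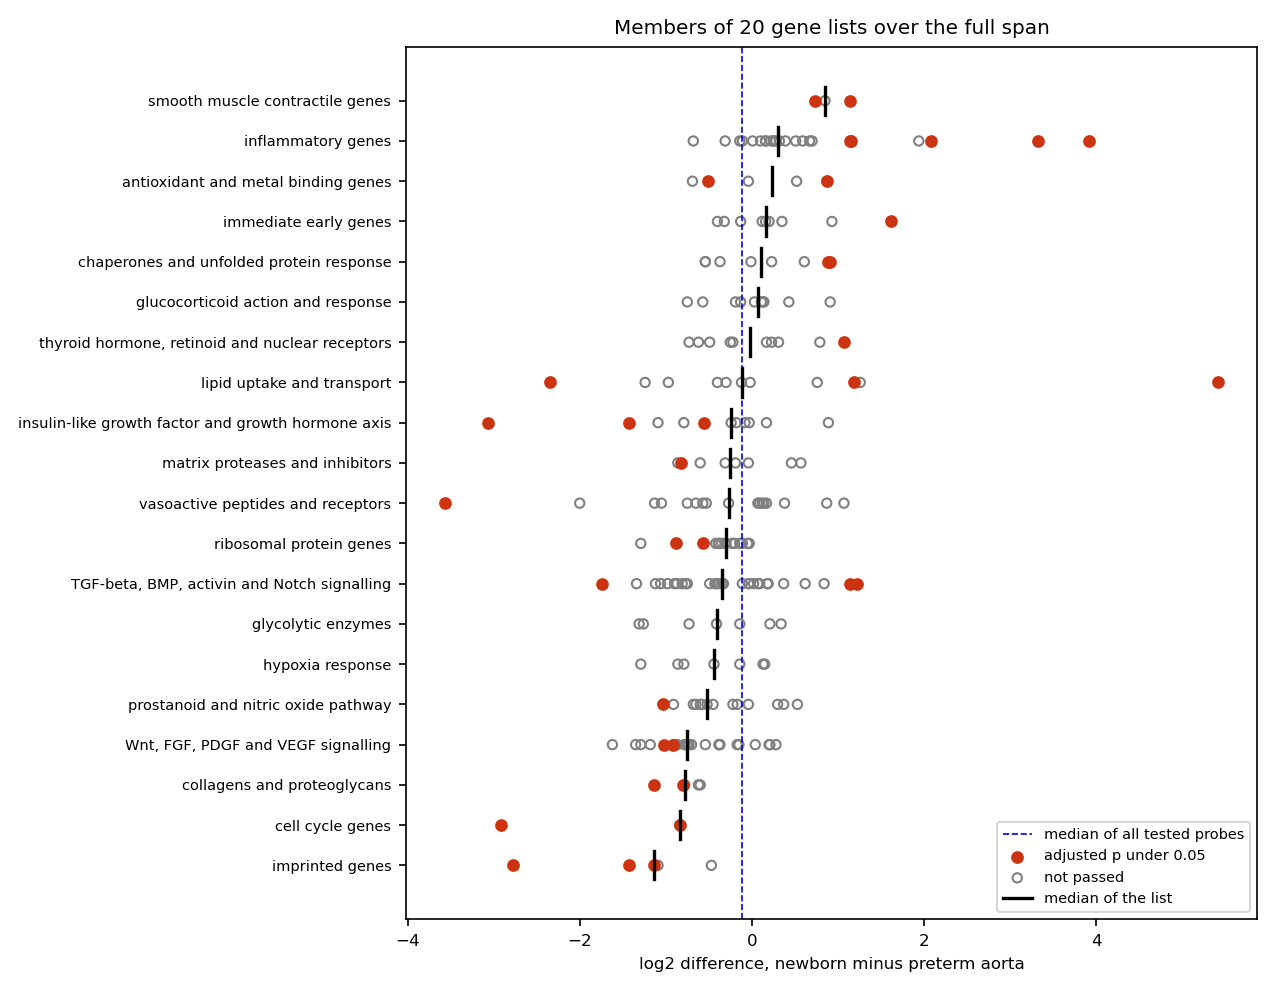
Difference in normalised log2 signal between newborn and preterm aorta (horizontal axis) of each measured member of 20 gene lists (rows), filled where the adjusted p was under 0.05 and open otherwise, with the median of the list (black bar) and of all tested probes (dashed line at -0.12). Imprinted, cell cycle and collagen genes have the lowest medians (-1.14, -0.84 and -0.78) and contractile and inflammatory genes the highest (0.85 and 0.30). With normexp the medians of the imprinted, cell cycle and collagen genes were -0.48, -0.73 and -0.53.

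The remaining large changes belong to no list above. PMCH, the precursor of melanin-concentrating hormone, read -2.12, -2.20, -2.34 and -2.10 in the preterm, -3.53, -2.46, -3.16 and -2.70 near term and -4.27, -5.84, -5.22 and -4.46 in the newborn, where 3 arrays were well above background. No stages overlapped. It fell 6.76-fold (log2 -2.76 ± 0.30, adjusted p 6.61e-06), by -0.77 before birth (adjusted p 0.333) and -1.98 across it (adjusted p 0.00101). In the RefSeq table its span overlaps that of PARPBP, and the spans of TYMS and ENOSF1, BGLAP and PAQR6, and PTX3 and VEPH1 overlap likewise. So do those of HSD11B1 and LAMB3, HSD11B2 and ZDHHC1, NOS3 and ATG9B, PFKM and SENP1, PTGDS and LCNL1, and UCP1 and ELMOD2. The same holds for RPL35A and IQCG, STAR and ASH2L, CTSB and FDFT1, DDIT3 and MARS1, and TIMP1 with ARAF, SYN1 and ZNF81. CA11, PGFS and COL1A1 each overlap a locus without a gene name. The strand of these probes was not checked, so the genes of each overlap cannot be told apart here.

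CA11, a carbonic anhydrase-like protein without enzyme activity, was at 0.01, 0.34, 0.25 and -0.06, then -1.93, -1.04, -0.92 and -0.98, then -2.91, -2.85, -2.35 and -1.24. It fell 5.54-fold (log2 -2.47 ± 0.35, adjusted p 9.4e-05) in steps of -1.35 (adjusted p 0.094) and -1.12 (adjusted p 0.0595). PDXK, the kinase that makes active vitamin B6, read -3.01, -2.67, -2.46 and -2.66, then -3.78, -2.85, -2.62 and -1.78, then -0.96, -1.19, -2.00 and -1.49. It rose 2.45-fold (log2 1.29 ± 0.33, adjusted p 0.0158), with -0.05 before birth and 1.34 across it (adjusted p 0.0179). With normexp the steps of PDXK were 0.44 before and 0.42 across birth. The full call ended without newborn replicate 1 (1.14, adjusted p 0.055) and with normexp (0.86, adjusted p 0.232), and the step across birth without any 1 of near-term replicates 1 and 2 and newborn replicates 1 and 2 (adjusted p from 0.0513 to 0.064).

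Of the other cell type markers, TPSB2 and MB passed. TPSB2, a mast cell tryptase, read 3.14, 2.24, 2.29 and 2.74 in the preterm, 2.61, 2.09, 2.60 and 2.97 near term and 1.55, 0.57, 1.56 and 1.55 in the newborn, and fell 2.45-fold (log2 -1.29 ± 0.27, adjusted p 0.00356), with -1.26 across birth (adjusted p 0.00801). It was alone in passing among 4 mast cell markers (25%, against 9.09% of all probes), of which FCER1G (0.41) and FCER1A (0.44) were above 0 and KIT (-0.73) below it. MB, myoglobin, at -1.37 (adjusted p 0.0363), was alone in passing of 2 heart muscle markers measured (50%, against 9.09% of all probes). The call of MB ended without any 1 of the preterm arrays or newborn replicates 1, 2 and 3 (adjusted p from 0.0568 to 0.14). TPSB2 and MB are outside the naming rule and were named after their values were seen. Of 3 erythroid, 6 skeletal muscle and 2 neuron and Schwann cell markers 0 passed.

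Most tested probes carry no gene name: of 12674 such probes 494 rose and 658 fell. Of all tested probes 3.94% rose and 5.16% fell. The probe A_70_P038556 read -2.12, -1.24, -1.21 and -1.53 in the preterm, 2.28, 2.37, 2.07 and 1.79 near term and 4.53, 5.22, 4.17 and 3.47 in the newborn. It rose 58.5-fold (log2 5.87 ± 0.39, adjusted p 2.14e-08), more than any named gene, and both steps passed (3.65, adjusted p 5.45e-05, and 2.22, adjusted p 0.00275). A_70_P024246 rose by 4.53 (adjusted p 0.000178), from -4.49 to -3.44 in the preterm to -1.40 to 3.02 in the newborn. A_70_P061236 went from 0.40, 1.03, 0.48 and 0.86 through 0.03, -0.13, -0.34 and 0.03 to -3.32, -4.94, -3.70 and -1.64, a fall of 17.1-fold (adjusted p 1.32e-05) of which -3.30 lay across birth (adjusted p 0.000678). A_70_P022102 fell 37.6-fold, with the preterm read on 2 arrays only.

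For 3 named genes the near-term mean differed from the midway (adjusted p 0.0483 each), and all 3 lay below it. CXCL8 was -1.33 from the midway (95% interval -1.91 to -0.76) and INHA -0.99 (95% interval -1.42 to -0.56), with the larger step across birth in both. HSPA5, the main chaperone of the endoplasmic reticulum, read 3.86, 3.80, 3.70 and 3.91 in the preterm, 3.14, 3.08, 2.99 and 3.39 near term and 4.24, 3.51, 3.86 and 3.63 in the newborn. Its difference over the full interval was -0.01 ± 0.16 (adjusted p 0.986), with the near-term arrays below both other stages (-0.66 from the midway). Each of these calls stood close to the threshold. That of CXCL8 ended without 9 of 12 arrays in turn (each except preterm replicate 3 and newborn replicates 2 and 4, adjusted p from 0.0633 to 0.142). Those of HSPA5 and INHA ended without 10 of 12 (each except newborn replicates 2 and 4, adjusted p up to 0.147). All 3 calls also ended with median centring, quantile normalisation, no filter on dim probes and aorta arrays only. The calls of HSPA5 and INHA ended with replicate number as a block, and those of CXCL8 and INHA with normexp. With normexp the steps of CXCL8 were 0.55 before and 1.51 across birth, and those of INHA 0.11 and 0.72.

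The change of the aorta was set against that of the ductus arteriosus over the same interval, in which a shift common to all arrays of a slide cancels. The spike-in detection limit varied within slides and does not cancel. It was above 1.5 on 0 of 4 newborn and 2 of 4 preterm ductus arrays, against 2 of 4 newborn and 3 of 4 preterm aorta arrays. The part of this property in the difference between vessels was not tested beyond the alternatives reported with the processing. The vessels differed for 88 probes (0.629%), 18 with the larger value in the aorta and 70 in the ductus (2 and 42 with median centring), and for 10 named genes, all with the larger rise or smaller fall in the ductus. These were IL6, SLC2A3, CHI3L1, PTGS2, SELP, SOD2, TIMP1, PTX3, NTN4 and MCL1, of which NTN4 and MCL1 are outside the naming rule and were named after their values were seen. PTX3 and NTN4 passed over the full interval in the aorta, where PTX3 rose and NTN4 fell by 0.91 on the log2 scale (adjusted p 0.0283), a call that ended without any 1 of the preterm arrays or newborn replicates 1 and 2 (adjusted p from 0.0545 to 0.0859). IL6, an inflammatory cytokine, was not well above background in the preterm ductus and read 0.44, -0.91, -0.55 and 0.61 on the 4 newborn ductus arrays. On the aorta arrays it was not well above background, so the fitted difference of -6.08 ± 0.76 (adjusted p 0.000273) is not a measured ratio, and with normexp it was -2.75 (adjusted p 0.165).

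SLC2A3 went from 2.63, 3.58, 2.55 and 2.38 to 5.84, 5.73, 5.94 and 5.30 in the ductus, a rise of 2.92 against -0.79 in the aorta (difference -3.71 ± 0.41, adjusted p 8.04e-05). PTGS2 went from -1.95, -2.36, -1.81 and -1.40 to 2.29, 1.56, 1.74 and 2.11 in the ductus, 3.80 against 0.53 in the aorta (difference -3.28 ± 0.42, adjusted p 0.000381). CHI3L1, a secreted lectin of activated macrophages, differed by -3.31 (adjusted p 0.00914), the endothelial adhesion receptor SELP by -3.00 (adjusted p 0.00939), SOD2 by -2.42 (adjusted p 0.00374), TIMP1 by -1.91 (adjusted p 0.00102) and the survival gene MCL1 by -1.69 (adjusted p 0.018). PTX3 differed by -1.79 (adjusted p 0.0481) and NTN4, a netrin of basement membranes, by -1.71 (adjusted p 0.0298). The call of PTX3 ended without 14 of 16 arrays in turn (each except preterm aorta replicate 1 and newborn aorta replicate 2, adjusted p from 0.0505 to 0.121). That of NTN4 ended without any 1 of preterm aorta replicates 2, 3 and 4, newborn aorta replicates 1 and 2, preterm ductus replicates 1 and 2 and newborn ductus replicates 1, 3 and 4 (adjusted p from 0.0519 to 0.0691). For SELP the call ended with normexp (-1.97, adjusted p 0.23) and with quantile normalisation (adjusted p 0.0775), and for PTGS2 with quantile normalisation (adjusted p 0.0974). For SOD2, TIMP1 and MCL1 it ended with median centring (adjusted p 0.0545, 0.106 and 0.282). The call of PTX3 ended with normexp (-1.73), median centring, quantile normalisation, no filter on dim probes and replicate number as a block.

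Apart from PTX3, none of the 24 largest called rises and falls of the aorta differed from the ductus past the threshold. This does not show that the vessels changed alike. SAA3 rose by 7.29 in the ductus against 3.92 (difference -3.37, 95% interval -5.33 to -1.41, adjusted p 0.133), CXCL8 by 5.09 against 3.32 (95% interval -2.71 to -0.82, adjusted p 0.088) and JUNB by 4.10 against 1.62 (95% interval -3.70 to -1.26, adjusted p 0.0546). FBLN1 differed by -0.74 in the ductus against -1.95 (95% interval -1.92 to -0.50, adjusted p 0.145). ASPM, AGTR2 and IGFBP2 differed by -3.20, -2.91 and -2.29 in the ductus.

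**Figure D5:**
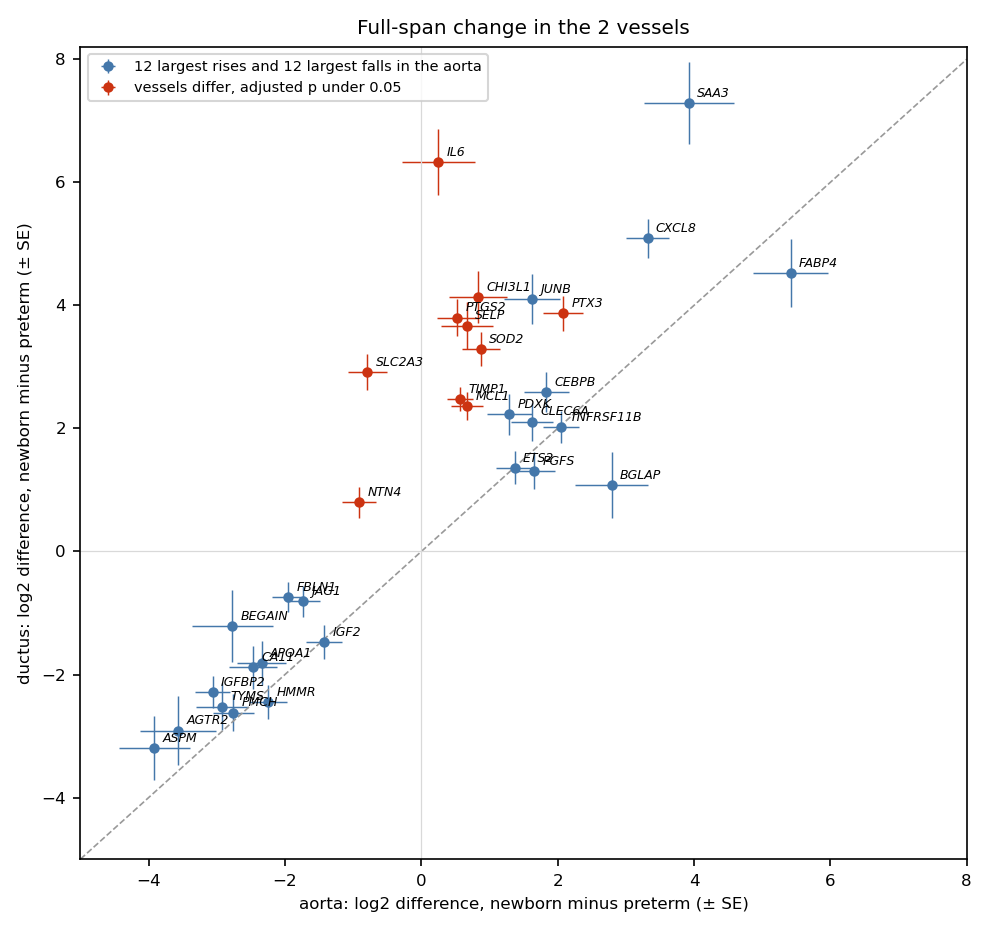
Difference in normalised log2 signal between newborn and preterm in the aorta (horizontal axis) and in the ductus (vertical axis), each with ± 1 standard error of the fit, for the 12 largest rises and 12 largest falls of the aorta and for the 10 genes whose change differed between the vessels (red). The rises and falls are those of genes that passed in the aorta and whose preterm and newborn arrays did not overlap. The dashed line marks equal change: the red points, among them IL6, PTGS2 and SLC2A3, all lie above it, and IGF2, HMMR and PMCH lie close to it.

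Of a further panel of 20 matrix, contractile, hormone, vasoactive and antioxidant genes 14 were measured, and 0 rose and 2 fell (AGTR2 and IGF2), where 9.09% of all probes were called. With normexp background correction, which raises the floor of dim probes, 12 of the 45 named genes called over the interval moved by over 1.5 times, all toward a smaller change. FABP4 then rose by 4.17, CXCL8 by 2.06, BGLAP by 1.99, PTX3 by 1.41, PGFS by 0.97 and CLEC6A by 0.75. ASPM then stood at -1.65, AGTR2 at -1.96, CA11 at -1.70, HMMR at -1.52, PMCH at -1.40 and BEGAIN at -0.40.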

How the data were processed

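Total RNA of 12 aorta and 12 ductus samples was amplified from its poly(A) fraction and measured in 1 dye, Cy3, on Agilent arrays of design 019921, per the labels' protocols and the file headers. The deposited spot intensity was background-subtracted and detrended by Feature Extraction 9.5.3.1, per the file headers, and was not scaled between arrays. Here control spots and spots flagged as outliers were left out, spots of a probe averaged, and each array's 75th percentile subtracted on the log2 scale. A probe was kept where the deposited flag of a signal well above background, another column of 0 or 1, was set on 4 or more of the 24 arrays. The 75th percentile of the aorta arrays ran from 322.1 to 883.2 intensity units.

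All 24 arrays entered 1 limma 3.58.1 fit of 6 group means (R 4.3.3), with Benjamini-Hochberg adjustment over the 13997 probes of each of 5 comparisons. Calls are at an adjusted p of 0.05, and p-values measure the spread between these samples. The labels do not say whether vessels of one number came from the same animal. On simulated data of 13997 probes with 100 changed at each size, the full-interval fit recovered 38% of log2 changes of 1 and 61% of those of 2. The midway test recovered 10% and 34% of log2 changes of 1 and 2 that were placed wholly before birth. The distance from the midway was smaller than these sizes. An "at least" fold sets the measured group's mean against the lowest signal well above background.

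Of 15008 probes 1440 were given a symbol (814 genes), 519 through a RefSeq accession and the rest through array names, gene IDs, synonyms and a table made by hand from array descriptions. RefSeq names and neighbours are those of assembly ARS-UI_Ramb_v3.0, and 13567 probes stayed unnamed. A gene is represented by its brightest tested probe. Named in the text are the 12 largest rises and falls without overlap, for each of 20 lists at most 4 members, taken by smallest p, the 5 largest differences each way for the midway and vessel comparisons, the further panel, and 2 unnamed probes each way. The members and lists were chosen with earlier results of these data known. Alternatives were other background correction, scaling, filters, sample sets, terms for detection limit and replicate number, and leaving out each array.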

Additional observations from a re-analysis of the deposited data

Results flagged for a closer look

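Single arrays stood apart from the other 3 of their group for 18 of 288 groups of 4 arrays looked at, where chance gives 14.4. Of these, 7 were on near-term replicate 1 and 5 on preterm replicate 1, both of which had a spike-in detection limit under 1.5. On near-term replicate 1 the ribosomal protein genes RPL10 (7.80), RPL35A (6.74) and RPSA (7.16) were above the others and RPS15 (-6.53) below them, CTSB was at 2.00, and DDIT3 (-3.95) and CA11 (-1.93) were low. On preterm replicate 1 the dim probes of EDNRB (-7.21) and NR3C1 (-7.65), JUND (-1.30) and HSP90AA1 (2.23) were low and NPC2 (2.43) was high. Near-term replicate 4 stood above its group for FABP4 (1.63 against -1.75 to -1.31) and PPARG (1.88). The others were CLEC6A on preterm replicate 3 (-4.20), PTX3 on near-term replicate 2 (-1.19), and ASPM (-2.84) and PTGDS (4.65) on near-term replicate 3.

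The change from preterm to newborn differed between aorta and ductus, in the limma test of the difference itself, for 10 named genes, each with the larger value in the ductus. The differences, aorta minus ductus on the log2 scale, were -6.08 for IL6, -3.71 for SLC2A3, -3.31 for CHI3L1, -3.28 for PTGS2, -3.00 for SELP, -2.42 for SOD2, -1.91 for TIMP1, -1.79 for PTX3, -1.71 for NTN4 and -1.69 for MCL1.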

How the results depend on the processing

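Calls for the full interval numbered 1273 and stayed within 1.5 times of that with quantile normalisation, other filters, outlier spots kept and the detection limit as a term. They numbered 699 with normexp, 534 with median centring, 772 with aorta arrays only, 314 with only the 2 groups compared, and 273 and 344 with only arrays whose detection limit was above or under 1.5. The step before birth, with 69 calls, gave 14 with median centring, 116 with probes above background on all aorta arrays, 8 with aorta arrays only, 12 with the 2 groups, 104 with the detection limit as a term, and 2 and 287 above and under 1.5. The step across birth, with 902, gave 181 with median centring, 238 with aorta arrays only, 0 with the 2 groups in limma (1963 at an unadjusted p under 0.05), and 17 and 1497 above and under 1.5.

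The midway test, with 40 calls, gave 0 in limma with median centring (1355 at an unadjusted p under 0.05), 0 with aorta arrays only (1439) and 0 above 1.5 (951), 23 with quantile normalisation, 16 without a filter, 161 with probes above background on all aorta arrays and 780 under 1.5. The difference between vessels, with 88, gave 58 with normexp, 44 with median centring, 137 with probes above background on all arrays, 140 with the detection limit as a term and 37 under 1.5. Aside from fewer probes or arrays, the cause was not tested.

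Leaving out 1 array gave 853 to 1448 calls for the full interval, 18 to 53 before birth, 478 to 1532 across birth, 0 to 188 for the midway and 36 to 116 between vessels. The lowest and highest across birth came without newborn replicates 2 and 4, and the highest for the midway without newborn replicate 4. With replicate number as a block the full interval gave 1346 calls, the steps 67 and 965, the midway 26 and the vessels 89. Of 12 same-numbered pairs of vessels 6 had correlated deviations over 0.1 (from -0.586 to 0.821). Arrays of one number at different stages correlated as strongly, as with preterm and near-term ductus 1 (0.779) or near-term ductus 4 and newborn aorta 4 (-0.828). These correlations therefore cannot show whether 2 vessels came from one animal. The numbers were not taken to pair samples, and a random block of stage and number gave 191 calls between vessels, against 88 without it.

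Of 45 named genes called over the full interval 32 kept their call with each array left out. AGTR2, ASPM, CA11, CXCL8, FABP4, FBLN1, HMMR, IGFBP2, PMCH and TNFRSF11B kept it under each alternative as well. Normexp ended 15 of the 45 calls, median centring 18, quantile normalisation 5 and aorta arrays only 15, and no gene that was called reversed. Signal over background limits ASPM, AGTR2, PMCH and BEGAIN in the newborn.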
